A study of Mus musculus with 6 samples.

Results

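The genes described here write, copy, read and remove DNA methylation: the DNA methyltransferases Dnmt1, Dnmt3a and Dnmt3b, the Tet dioxygenases Tet1, Tet2 and Tet3, the hemimethylated-DNA binding proteins Uhrf1 and Uhrf2, and the methyl-CpG reader Mbd2. They were taken from the table by gene symbol, as a family chosen with earlier results of these data known, and the deposited table held 9 of 9 among its 55487 genes. RNA had been sequenced from bone marrow cells that the labels call LT-HSCs, long-term haematopoietic stem cells, which are rare and sustain blood formation. All 6 libraries carried the genotype label Mmrn1-GFP type, that is, a green fluorescent protein (GFP) reporter for Mmrn1, the gene of the platelet and endothelial protein multimerin 1. They formed 2 groups, Mmrn1-high with 3 libraries and Mmrn1-low with 3 libraries. The sources used here give neither the age and sex of the mice nor the surface gate, nor the reporter level at which the groups were divided. They do not say whether replicates were separate mice, so a p-value covers the spread among these libraries, which could be technical spread.

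Methylated cytosines lie mostly in CpG pairs, and after DNA replication the new strand lacks the mark. Uhrf1 binds the hemimethylated sites and brings in Dnmt1, which copies the mark, whereas Dnmt3a and Dnmt3b place it on sites that had none, and the Tet enzymes oxidise methylcytosine as a first step of its removal. In blood stem cells of the mouse, loss of Dnmt3a or of Tet2 is known to raise self-renewal, and both human genes are often mutated in clonal haematopoiesis.

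The library totals were 11595104, 30909990 and 14236755 counts for Mmrn1-high replicates 1 to 3 and 16657398, 14288095 and 30180151 counts for Mmrn1-low replicates 1 to 3. Levels are given as TMM-scaled CPM, which puts all libraries on the same total and corrects that total for composition, and 1 CPM stood for between 12.2 and 32.4 counts. All 9 genes passed the filter on low counts, among 15419 genes tested. Mmrn1 itself averaged 10.0 CPM in Mmrn1-high and 5.69 CPM in Mmrn1-low libraries, a log2 fold change of 0.82 ± 0.12 (SE). Of 10 LT-HSC markers, 8 were higher in Mmrn1-high libraries, with 2 (Hoxb5 and Vwf) not called, and their summed level was 195 to 235 CPM in Mmrn1-high against 84.6 to 100 CPM in Mmrn1-low libraries. The 8 granulocyte progenitor markers summed to 3458 to 3531 CPM in Mmrn1-high and 23342 to 24603 CPM in Mmrn1-low libraries, more than the LT-HSC markers in each library. The cells labelled LT-HSCs thus held abundant granulocyte progenitor transcripts in both groups, and the label was not borne out by these markers alone.

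Of the 9 genes, 3 were higher and 3 were lower in Mmrn1-high cells at an adjusted p under 0.05. The higher genes were Dnmt3b, Dnmt3a and Tet1, and the lower ones were Dnmt1, Tet3 and Mbd2. Uhrf1, Uhrf2 and Tet2 were not called. Of all genes tested by edgeR's quasi-likelihood test with Benjamini-Hochberg adjustment, 30.7% were called higher and 30.5% lower, 61.2% in all, so 3 and 3 of 9 lie near the background. The median absolute log2 fold change was 0.30 over the 9 genes and 0.37 over all genes tested. Mmrn1-high and Mmrn1-low libraries lay apart without overlap for 7 of the 9 genes, against 67.8% of all genes tested. With library size alone as the scaling, 5 of the 9 genes were higher and 1 lower, when 40.2% of all genes were called higher, 20.7% lower and 60.9% in all. Neither how many of the 9 genes differed nor the size of the differences stood above all genes, and what follows is which genes lay on which side. Bulk RNA cannot tell fewer cells of a type from less RNA per cell, and this holds for each level below.

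**Figure D1:**
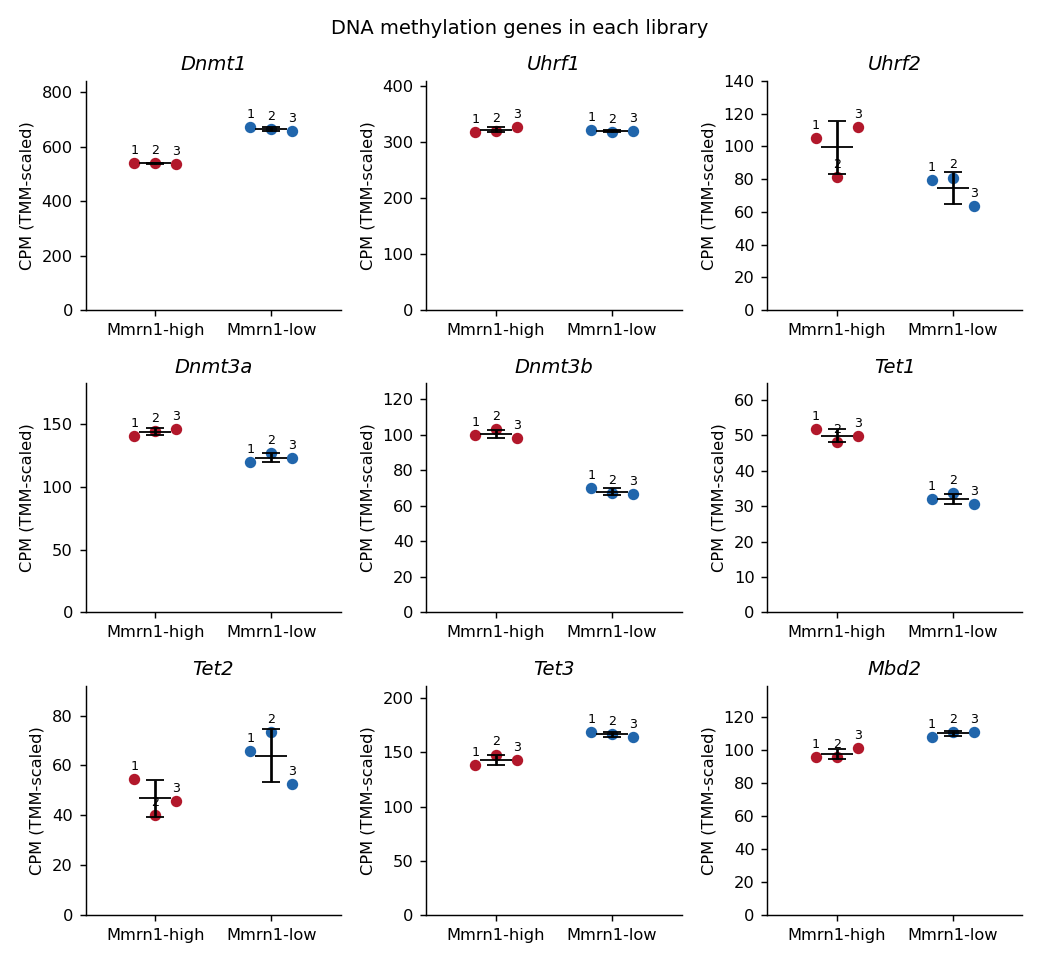
TMM-scaled CPM of each of the 9 genes (vertical axes, starting at 0) in Mmrn1-high and Mmrn1-low libraries. Points are libraries with their replicate numbers, bars are the mean and SD of 3 libraries. Dnmt3b and Tet1 lie apart with the Mmrn1-high libraries above, Dnmt1 with them below, and Uhrf2 and Tet2 have the widest scatter.

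Of the maintenance genes, Dnmt1 was lower in Mmrn1-high cells while Uhrf1 was not called. Dnmt1 (ENSMUSG00000004099, GRCm38 chr9:20907209-20959888, minus strand), the enzyme that copies methylation to the new strand, was at 540, 539 and 538 CPM in Mmrn1-high libraries and at 673, 666 and 656 CPM in Mmrn1-low libraries. The groups lay far apart relative to the scatter within each. The means were 539 ± 0.91 CPM in Mmrn1-high and 665 ± 8.92 CPM in Mmrn1-low cells (SD, n = 3 each), a log2 fold change of -0.30 ± 0.02 (SE, edgeR adjusted p = 1.28e-05).

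Uhrf1 (ENSMUSG00000001228, GRCm38 chr17:56303321-56323486, plus strand), the protein that recruits Dnmt1, was at 318, 320 and 327 CPM in Mmrn1-high libraries and at 321, 317 and 319 CPM in Mmrn1-low libraries. The groups overlapped. The log2 fold change was 0.01 ± 0.03 (SE) with a 95% interval of -0.05 to 0.07, and the edgeR adjusted p was 0.701. Under scaling by library size alone, which moved the median log2 fold change of all genes by 0.15, Uhrf1 was called higher at 0.16, about that shift.

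The ratio of Uhrf1 to Dnmt1, in counts per kilobase of exon, is free of the scaling. It was 1.02, 1.03 and 1.05 in Mmrn1-high libraries and 0.825, 0.825 and 0.843 in Mmrn1-low libraries. Each Mmrn1-high library thus held slightly more Uhrf1 than Dnmt1 per length, and each Mmrn1-low library less. The log2 difference of the ratio was 0.32, with a two-sided exact permutation p of 0.1, the smallest that 3 against 3 libraries allow, and 0.16 after adjustment over the 8 ratios computed.

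Uhrf2 (ENSMUSG00000024817, GRCm38 chr19:30030513-30093722, plus strand), a paralog that binds hydroxymethylated DNA and is not known to replace Uhrf1 in maintenance, had a level of 105, 81.1 and 112 CPM in Mmrn1-high libraries and 79.4, 81 and 63.6 CPM in Mmrn1-low libraries. The lowest Mmrn1-high and the highest Mmrn1-low library nearly met. The means were 99.5 ± 16.2 CPM in Mmrn1-high and 74.7 ± 9.62 CPM in Mmrn1-low cells (SD, n = 3 each), and the log2 fold change of 0.41 ± 0.16 (SE) missed the threshold by edgeR (adjusted p = 0.0716, 95% interval 0.01 to 0.82). DESeq2, which called 26.6% of all genes higher, 27.8% lower and 54.4% in all, called it at the same 0.41 (adjusted p = 0.00671). Without Mmrn1-high replicate 2, the deepest library of that group, edgeR called Uhrf2 at 0.56.

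The promoters of Dnmt1 and Uhrf1 are shown because these genes act as a pair and were both searched for sites of the S-phase E2F factors. RefSeq lists 13 start sites with windows for 8 of the 9 genes (GRCm38.p6, 250 bases before and 50 after each start, the start base being +1 and the base before it -1), all but Mbd2. The motif TTTCGCGC, sought on both strands, was in 2 of the 13 windows, a window of Dnmt1 and a window of Uhrf1, and in 0.323% of 32851 windows of all genes. The related motif TTTGGCGC was in 1 window, also of Dnmt1, and in 0.514% of all windows. The TTTCGCGC match stands in capitals in both stretches, as its reverse complement in Dnmt1. The Dnmt1 stretch covers bases -230 to -201 of its start (chr9:20952824-20952853, minus strand) and lies inside exons of other Dnmt1 transcripts, and the Uhrf1 stretch covers bases -196 to -167 (chr17:56304117-56304146, plus strand) outside any exon.
Dnmt1: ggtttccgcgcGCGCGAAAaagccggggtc
Uhrf1: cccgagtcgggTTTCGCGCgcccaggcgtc
The Dnmt1 window is that of transcript Dnmt1-203, whose start lies downstream of that of the principal annotated transcript Dnmt1-201. The window at the Dnmt1-201 start held no TTTCGCGC. Both genes thus held the motif near an annotated start site. Dnmt1 was called and Uhrf1 was not. A match describes the letters and no binding was measured.

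The de novo enzymes were both higher in Mmrn1-high cells, with the larger fold change for Dnmt3b. Dnmt3a (ENSMUSG00000020661, GRCm38 chr12:3806007-3914443, plus strand), the main de novo enzyme of adult blood cells, was at 141, 145 and 146 CPM in Mmrn1-high libraries and at 120, 127 and 123 CPM in Mmrn1-low libraries. The groups did not overlap. The means were 144 ± 2.78 CPM in Mmrn1-high and 123 ± 3.89 CPM in Mmrn1-low cells (SD, n = 3 each), a log2 fold change of 0.23 ± 0.04 (SE, edgeR adjusted p = 0.000793). Dnmt3a shares 133 exon bases, 0.799% of its exon length, with Dnmt3aos on the opposite strand, and the sources used here do not give the strand setting of the counting.

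Dnmt3b (ENSMUSG00000027478, GRCm38 chr2:153649450-153687730, plus strand), the de novo enzyme known for its work in the early embryo, had a level of 100, 103 and 98.3 CPM in Mmrn1-high libraries and 70.1, 67.1 and 66.4 CPM in Mmrn1-low libraries. The gap between the groups was many times the scatter within them. The means were 101 ± 2.26 CPM in Mmrn1-high and 67.9 ± 1.97 CPM in Mmrn1-low cells (SD, n = 3 each), which is 1.48-fold and a log2 fold change of 0.57 ± 0.04 (SE, edgeR adjusted p = 7.65e-06). Dnmt3b per Dnmt3a, in counts per kilobase, was 2.32, 2.3 and 2.19 in Mmrn1-high libraries and 1.91, 1.72 and 1.76 in Mmrn1-low libraries. The ratio was higher in each Mmrn1-high library, with an exact permutation p of 0.1, two-sided, and 0.16 adjusted over 8 ratios.

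The Dnmt3b promoter is printed because this gene had the larger difference of the de novo pair. It is the stretch from base -250 to -1 (chr2:153649199-153649448, plus strand, GRCm38.p6, RefSeq), with the GC box GGGCGG in capitals on either strand. It holds 3 such matches, of which a pair stand in tandem, and no annotated exon.
Dnmt3b: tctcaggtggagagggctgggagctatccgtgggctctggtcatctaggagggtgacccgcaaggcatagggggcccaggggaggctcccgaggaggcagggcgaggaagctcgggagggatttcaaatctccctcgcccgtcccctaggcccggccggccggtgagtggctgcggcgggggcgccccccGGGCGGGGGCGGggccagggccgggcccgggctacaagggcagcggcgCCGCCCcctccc
GC boxes were in 11 of the 13 windows and in all 8 genes with a window, both those that were higher and those that were lower, against 35.7% of all windows. No window held the TATA box TATAAA, which 13.6% of all windows hold. Of the 13 windows, 12 had more CpG pairs than the median window of all genes, which had 7. The count ran from 2 in the most upstream Dnmt1 window to 57 in Tet2, and the GC content from 51.3% to 82.3% against a median of 52.7%. Of the other motifs sought, CCAAT was in 5 windows (Dnmt1, Tet3 and Uhrf1) and 37.4% of all windows, the NRF1 palindrome in 2 (Dnmt1) and 0.971%, CACGTG in 1 (Dnmt3a) and 7.15%, TTTGAA in 2 (Dnmt1 and Dnmt3b) and 17.9%, and TGACGTCA in 0 and 1.79%.

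As shares of the 3 methyltransferase genes' counts per kilobase, Dnmt1 made up 72 ± 0.311% in Mmrn1-high and 81.3 ± 0.0377% in Mmrn1-low cells (SD, n = 3 each). Dnmt3b made up 19.4 ± 0.339% in Mmrn1-high and 12 ± 0.219% in Mmrn1-low cells, and Dnmt3a 8.54 ± 0.169% in Mmrn1-high and 6.68 ± 0.247% in Mmrn1-low cells. The family's transcripts thus held a larger de novo part in each Mmrn1-high library, a statement that no library scaling can change. The sizes of the shares depend on the gene lengths used. The authors' FPKM imply longer genes, for Dnmt3a 29.2 kb against the 16.6 kb used here. The ratio of Dnmt1 to Dnmt3a was 8.44 ± 0.176 in Mmrn1-high and 12.2 ± 0.461 in Mmrn1-low cells, with an exact permutation p of 0.1 and 0.16 adjusted over 8 ratios.

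**Figure D2:**
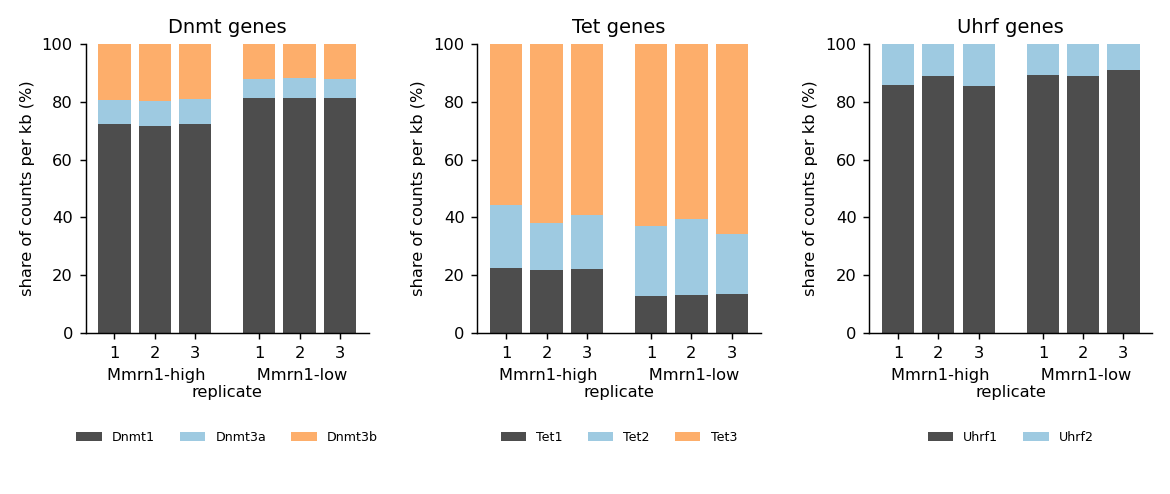
Share of each gene in its family's counts per kilobase of exon (vertical axis, percent) for the Dnmt, Tet and Uhrf families, a bar per library. Dnmt1 made up 72% in Mmrn1-high and 81.3% in Mmrn1-low libraries on average, and Tet1 22.2% in Mmrn1-high and 13.1% in Mmrn1-low libraries.

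The Tet genes moved in different directions. Tet1 was higher in Mmrn1-high cells and Tet3 was lower, the call for Tet3 being lost under scaling by library size alone. Tet1 (ENSMUSG00000047146, GRCm38 chr10:62804570-62908996, minus strand), which carries its own CXXC domain for binding CpG-rich DNA, was at 51.7, 48.2 and 49.9 CPM in Mmrn1-high libraries and at 31.9, 33.6 and 30.7 CPM in Mmrn1-low libraries. The groups were well apart. The means were 49.9 ± 1.78 CPM in Mmrn1-high and 32 ± 1.46 CPM in Mmrn1-low cells (SD, n = 3 each), which is 1.56-fold and a log2 fold change of 0.64 ± 0.06 (SE, edgeR adjusted p = 3e-05), the largest fold among the 9 genes.

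Tet2 (ENSMUSG00000040943, GRCm38 chr3:133463679-133545139, minus strand), the Tet gene most often mutated in human blood disease, had a level of 54.7, 40 and 45.6 CPM in Mmrn1-high libraries and 65.8, 73.5 and 52.5 CPM in Mmrn1-low libraries. The highest Mmrn1-high library was above the lowest Mmrn1-low library. The means were 46.8 ± 7.42 CPM in Mmrn1-high and 63.9 ± 10.6 CPM in Mmrn1-low cells (SD, n = 3 each), and the log2 fold change of -0.45 ± 0.17 (SE) was not called by edgeR (adjusted p = 0.0607, 95% interval -0.87 to -0.03). DESeq2 called it at the same -0.45 (adjusted p = 0.00613), and edgeR called it at -0.56 without Mmrn1-high replicate 1 and at -0.57 without Mmrn1-low replicate 3. Tet2 shares 43 exon bases, 0.255% of its exon length, with Gm42567 on the opposite strand.

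Tet3 (ENSMUSG00000034832, GRCm38 chr6:83362373-83459084, minus strand), known for oxidising the paternal genome in the zygote, was at 138, 148 and 143 CPM in Mmrn1-high libraries and at 169, 167 and 164 CPM in Mmrn1-low libraries. The groups did not overlap. The log2 fold change was -0.22 ± 0.04 (SE, edgeR adjusted p = 0.000881), and -0.07 with library size alone, where it was not called.

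Within the Tet family, Tet1 made up 22.2 ± 0.419% of counts per kilobase in Mmrn1-high and 13.1 ± 0.232% in Mmrn1-low cells (SD, n = 3 each). Tet3 made up 58.8 ± 3.08% in Mmrn1-high and 63.1 ± 2.68% in Mmrn1-low cells, and Tet2 19 ± 2.68% in Mmrn1-high and 23.8 ± 2.77% in Mmrn1-low cells. Tet3 was the main Tet transcript in all 6 libraries, and the shares of Tet2 and of Tet3 overlapped between the groups. The ratio of Tet1 to Tet2 was 1.03, 1.31 and 1.19 in Mmrn1-high libraries and 0.529, 0.499 and 0.637 in Mmrn1-low libraries. The ratio was higher in each Mmrn1-high library than in each Mmrn1-low library, a 2.13-fold difference with an exact permutation p of 0.1 and 0.16 adjusted over 8 ratios. Which of Tet1 and Tet2 is higher within a library depends on the gene lengths used, the authors' FPKM in Mmrn1-high replicate 1 being 1.82 for Tet1 and 1.93 for Tet2.

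Mbd2 (ENSMUSG00000024513, GRCm38 chr18:70568189-70626131, plus strand) binds methylated CpG and links it to the NuRD repressor complex. It was at 95.8, 95.4 and 101 CPM in Mmrn1-high libraries and at 108, 111 and 111 CPM in Mmrn1-low libraries. The groups did not overlap, but the gap was small. The log2 fold change was -0.18 ± 0.04 (SE, edgeR adjusted p = 0.00397). With library size alone it was -0.03 and not called, and without the deepest library of each group it was -0.14 with an adjusted p of 0.0595.

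**Figure D3:**
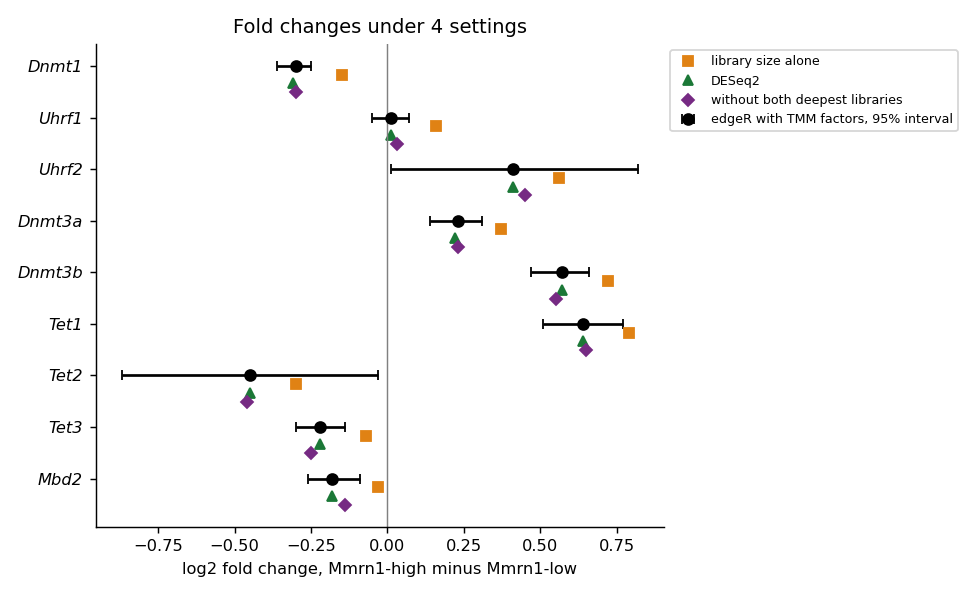
Log2 fold change, Mmrn1-high minus Mmrn1-low (horizontal axis), of the 9 genes. Circles with 95% intervals are edgeR with TMM factors, and the other marks are library size alone, DESeq2, and edgeR without the deepest library of each group. All 9 genes kept their sign in the 4 settings, with the marks for library size alone to the right of the circles, and Tet3 (-0.07) and Mbd2 (-0.03) then lie near 0.

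Tet2 and Uhrf2 had wide scatter, with their lowest levels in the deepest libraries. Their coefficients of variation between Mmrn1-high libraries were 15.8% for Tet2 and 16.3% for Uhrf2, and between Mmrn1-low libraries 16.6% for Tet2 and 12.9% for Uhrf2. The medians of 6752 genes of at least moderate level (average log2 CPM of 5 or more) were 3.54% in Mmrn1-high and 3.73% in Mmrn1-low libraries, and both genes lay between percentiles 91.6 and 94.1 in each group. For Tet1, Tet2 and Uhrf2, the deepest library was the lowest in both groups, as for 10.1% of all genes tested. Without the deepest library of each group, a setting chosen after the values were seen, Tet2 was called lower at -0.46 (edgeR adjusted p = 0.0117) and Uhrf2 higher at 0.45 (adjusted p = 0.000688), when 26.1% of all genes were called higher, 25.7% lower and 51.8% in all. The part of depth in these levels was not tested. By contrast, Dnmt1 varied by 0.169% between Mmrn1-high and 1.34% between Mmrn1-low libraries.

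**Figure D4:**
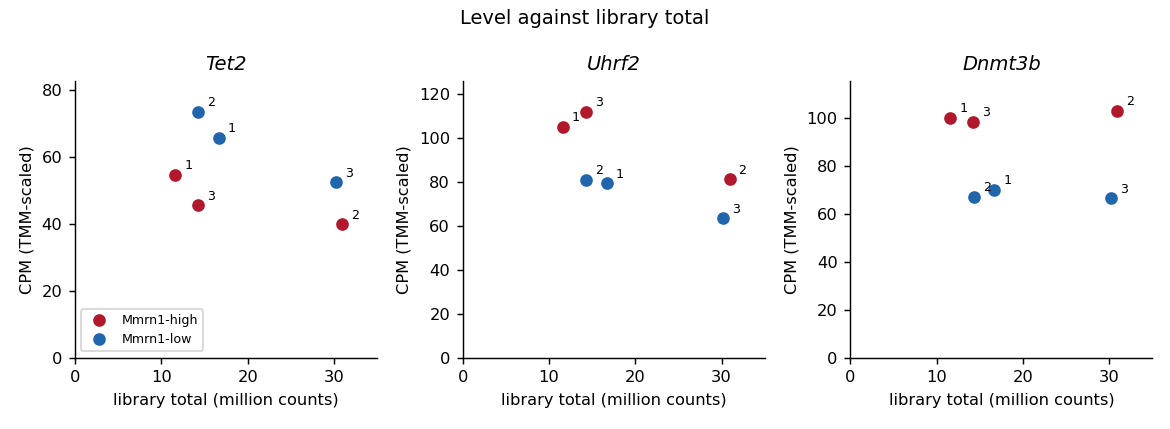
TMM-scaled CPM (vertical axes, from 0) against library total (horizontal axes, total counts) for Tet2, Uhrf2 and Dnmt3b, with libraries marked by group and replicate number. Tet2 and Uhrf2 are lowest in the deepest library of each group (40 CPM in Mmrn1-high and 52.5 CPM in Mmrn1-low libraries for Tet2), and Dnmt3b shows no such dip in Mmrn1-high libraries, where the deepest is at 103 CPM.

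Levels between genes were compared as CPM per kilobase of exon. In Mmrn1-high cells the order was Uhrf1 (75.6 ± 1.16), Dnmt1 (73.1 ± 0.123), Mbd2 (30.3 ± 1.02), Dnmt3b (19.7 ± 0.444), Uhrf2 (11.6 ± 1.89), Dnmt3a (8.66 ± 0.167), Tet3 (8.56 ± 0.303), Tet1 (3.23 ± 0.115) and Tet2 (2.77 ± 0.44, SD, n = 3). Dnmt3a and Tet3 overlapped there, as did Tet1 and Tet2. In Mmrn1-low cells Dnmt1 came first at 90.1 ± 1.21, before Uhrf1 at 74.9 ± 0.401, and Tet1 came last at 2.07 ± 0.0944 CPM per kilobase. Uhrf2 (8.69 ± 1.12) and Dnmt3a (7.41 ± 0.234) overlapped in that group. The maintenance pair therefore led in both groups, and the Tet genes Tet1 and Tet2 closed the order and changed places. By the authors' FPKM, whose gene lengths differ from the exon lengths used here, Tet3 stood above Dnmt3a in Mmrn1-high cells and above Dnmt3b in Mmrn1-low cells.

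The genes nearest in pattern were sought for the called genes at the ends of the range, by Euclidean distance of mean-centred log2 CPM over the 6 libraries among 7259 genes. For Tet1 these were Ly86 (distance 0.0561, log2 fold change 0.62), Chil3 (0.0782, 0.65) and Nme4 (0.0926, 0.58). For Dnmt1 they were Preb (0.0353, -0.30), Srsf9 (0.0377, -0.29) and Nt5c (0.0399, -0.33). The DNA methylation genes described here were left out of this ranking, so it cannot show whether any of them shares either pattern.

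Around the 9 genes, lists of the wider pathway were counted in the same fit. Without the 9 genes, and with each gene counted once, they hold 85 genes, of which 72 were tested. Of these, 21 were higher and 27 were lower, 66.7% against 61.2% of all genes. Their median log2 fold change was -0.04 against 0.01 for all genes tested. Of the other methyltransferase genes, Dnmt3l, a catalytically inactive cofactor of the de novo enzymes, was at 0.817, 1.02 and 0.469 CPM in Mmrn1-high libraries and at 3.36, 1.7 and 2.47 CPM in Mmrn1-low libraries. It was lower in Mmrn1-high cells, opposite to Dnmt3a and Dnmt3b, with a log2 fold change of -1.63 ± 0.33 (SE, edgeR adjusted p = 0.00319), at a very low level in both groups. Trdmt1, which methylates transfer RNA, fell by 0.59 on the log2 scale (adjusted p = 0.000253). Dnmt3c, a rodent copy of Dnmt3b whose reads may be split with it, had 1.13 CPM in Mmrn1-high and 1.1 CPM in Mmrn1-low cells.

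Of 9 maintenance partners, 3 were higher, 2 lower and 4 not called (median 0.05), and 7 were higher and 1 lower with library size alone. Cdca7, which recruits the remodeller Hells to hemimethylated chromatin, averaged 302 ± 0.924 CPM in Mmrn1-high and 250 ± 3.69 CPM in Mmrn1-low cells (SD, n = 3 each), a log2 fold change of 0.27 (edgeR adjusted p = 3.93e-05). Hells itself was at 169 CPM in both groups and was not called. Cdca7l (0.13) and Ehmt1 (0.18) were the other higher genes and lost their calls without the deepest libraries. Pclaf, a PCNA-bound protein that helps bring in Dnmt1, fell by 0.29 on the log2 scale, and Usp7, which stabilises Dnmt1 and Uhrf1, fell by 0.16. With library size alone Usp7 was not called.

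Of 9 other genes of the methyl-CpG reader families, 3 were higher (Mbd4 and Zbtb4 among them), 2 lower (Mbd1 and Mbd3) and 4 not called. The median of the 9 was 0.01. Mbd3, the NuRD subunit that takes the place of Mbd2 in a separate form of the complex, averaged 111 ± 5.29 CPM in Mmrn1-high and 160 ± 4.29 CPM in Mmrn1-low cells (SD, n = 3 each), a log2 fold change of -0.52 (edgeR adjusted p = 1.78e-05). Mbd2 and Mbd3 were thus both lower, and the difference between their fold changes was not tested. Mbd1, a repressor that binds methylated DNA, fell by 0.38 on the log2 scale. Zbtb4, a zinc finger reader, was higher by 1.54 ± 0.39 (SE). It and the repair glycosylase Mbd4 (0.24) lost their calls without the deepest libraries.

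Of 13 NuRD genes, 3 were higher, 4 lower and 6 not called (median -0.07), and 6 were higher and 2 lower with library size alone. Chd3, a remodelling subunit, was at 272, 291 and 280 CPM in Mmrn1-high libraries and at 112, 104 and 113 CPM in Mmrn1-low libraries, a log2 fold change of 1.36 ± 0.04 (SE, edgeR adjusted p = 1.23e-07). Its paralog Chd4 had a log2 fold change of 0.01 and was not called. Mta3 was higher by 0.71 and Hdac2 by 0.14. The lower genes were Mbd3, Gatad2a (-0.25), Rbbp4 (-0.14) and Mta2 (-0.07), of which Rbbp4 and Mta2 changed sign with library size alone.

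Of 14 genes of base excision after Tet oxidation, 4 were higher, 6 lower and 4 not called, with a median of -0.07, and 5 were higher and 3 lower with library size alone, with a median of 0.08. The glycosylase Tdg, which removes the oxidised bases, had 19.6 ± 1.67 CPM in Mmrn1-high and 23.7 ± 1.5 CPM in Mmrn1-low cells (SD, n = 3 each), and its call (-0.28, edgeR adjusted p = 0.0231) was lost with library size alone and without the deepest libraries. Neil1, a glycosylase, was higher by 0.79 and Neil3, another, fell by 0.49. Neil2 was higher by 1.70 at about 1.07 CPM in Mmrn1-high and 0.358 CPM in Mmrn1-low cells, and its call was lost without the deepest libraries. The stress-induced Gadd45 genes were divided: Gadd45b was at 30.5 ± 2.19 CPM in Mmrn1-high and 63.7 ± 2.1 CPM in Mmrn1-low cells (log2 fold change -1.06, adjusted p = 3.08e-06), Gadd45a fell by 0.44 and Gadd45g was higher by 0.65.

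Of the 9 Tet partners and cofactor enzymes, 6 were tested and all 6 were called, 3 higher and 3 lower (median -0.02). Ogt, a sugar transferase that binds Tet proteins, was higher by 0.67 ± 0.16 (SE), a call that was lost without the deepest libraries, as was that of D2hgdh (0.20). Cxxc5, a CXXC protein that binds Tet2, was at 102, 95.9 and 95.5 CPM in Mmrn1-high libraries and at 37.9, 44.9 and 47.2 CPM in Mmrn1-low libraries, a log2 fold change of 1.17 ± 0.08 (SE, edgeR adjusted p = 7.51e-06). Idh1, which makes the 2-oxoglutarate that Tet enzymes consume, was at 66.7, 67.2 and 64 CPM in Mmrn1-high libraries and at 171, 160 and 171 CPM in Mmrn1-low libraries, a log2 fold change of -1.34 ± 0.04 (SE, adjusted p = 8.68e-08). These were the largest differences among the tested genes of the list, and neither pair of groups overlapped. Mitochondrial Idh2 fell by 0.24, a call that was lost with library size alone. Cxxc4, Dppa3 and Wt1 were not tested, Dppa3 and Wt1 having no count in any library.

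Of 9 genes of the S-adenosylmethionine cycle, which supplies the methyl group, 5 were lower, 1 was higher and 3 were not called, with a median of -0.16 that became -0.01 with library size alone. Mat2b, the regulatory subunit of the enzyme that makes S-adenosylmethionine, was at 99.4, 101 and 96.8 CPM in Mmrn1-high libraries and at 147, 152 and 153 CPM in Mmrn1-low libraries, a log2 fold change of -0.60 ± 0.03 (SE, edgeR adjusted p = 2.07e-06). It was the lower gene that kept its call with library size alone. Mat2a (-0.17), Ahcy (-0.20), Ahcyl1 (-0.15) and Mtr (-0.18) did not.

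Of 9 genes linked to where DNA methylation is placed, kept or kept out, 3 were higher (Zfp57, Trim28 and Nsd3) and 4 lower (Nsd1, Nsd2, Cxxc1 and Kdm2b). The remaining 2 were not called, the median was 0.11, and none of the lower calls held with library size alone. Zfp57, a zinc finger protein that keeps methylation at imprinted regions, had 2.95 ± 0.834 CPM in Mmrn1-high and 0.905 ± 0.156 CPM in Mmrn1-low cells (SD, n = 3 each), a log2 fold change of 1.70 ± 0.28 (SE, edgeR adjusted p = 0.00102). Its corepressor Trim28 was higher by 0.11, and Nsd3, a histone methyltransferase, by 0.24. Without the deepest libraries, Trim28, Nsd1 and Kdm2b lost their calls.

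Germline genes that are silenced by promoter methylation in body cells were nearly silent in both groups. Of 12 listed, 10 were under the filter, and the summed level was 3.84 to 5.64 CPM in Mmrn1-high and 1.48 to 2.92 CPM in Mmrn1-low libraries. Ddx4, a germ cell RNA helicase, was at 1.72, 3.33 and 2.48 CPM in Mmrn1-high libraries and at 1.21, 0.516 and 0.592 CPM in Mmrn1-low libraries, a log2 fold change of 1.79 ± 0.36 (SE, edgeR adjusted p = 0.0029). Brdt, a testis bromodomain gene, was higher by 0.97, a call that was lost without the deepest libraries. Both were near the floor in Mmrn1-low cells, with means of 0.771 CPM for Ddx4 and 1.05 CPM for Brdt. A gene can pass the filter through the group where it is higher, so these calls do not speak for the list. No methylation was measured.

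**Figure D5:**
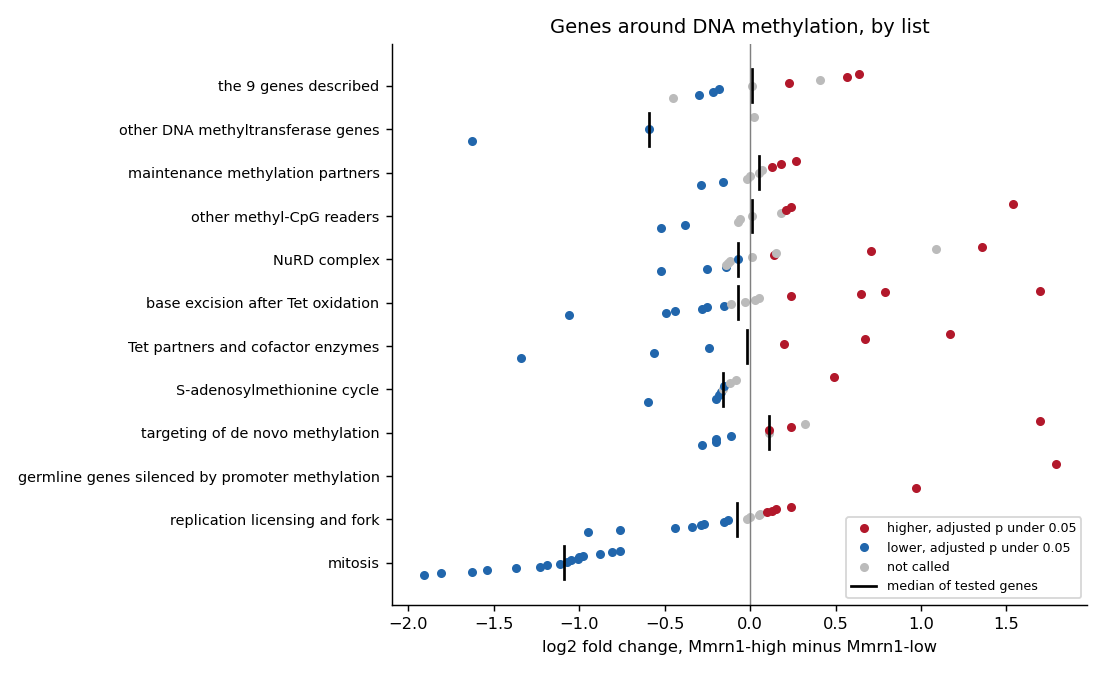
Log2 fold change, Mmrn1-high minus Mmrn1-low (horizontal axis), of every tested gene in each list (rows), with edgeR and TMM factors. Red and blue points were called higher and lower, grey points were not called, and black bars are medians. All 16 mitosis genes lie below 0 with a median of -1.09, while the 9 DNA methylation genes lie on both sides with a median of 0.01.

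Since Dnmt1 and Uhrf1 are transcribed with DNA replication, proliferation genes are given beside them. Of 16 replication genes, 4 were higher (Mcm2, Mcm3, Mcm4 and Mcm6), 8 lower and 4 not called (median -0.07), and 7 were higher and 4 lower with library size alone. Their summed level was 3937 to 4032 CPM in Mmrn1-high and 4148 to 4216 CPM in Mmrn1-low libraries. Rrm2, a subunit of the enzyme that makes deoxynucleotides, fell by 0.95 and Mcm6, a helicase subunit, was higher by 0.24. All 16 mitosis genes were lower in Mmrn1-high cells, also with library size alone, with a median of -1.09 and a summed level of 2066 to 2124 CPM in Mmrn1-high and 4348 to 4388 CPM in Mmrn1-low libraries. Ube2c fell by 1.91 and Cdk1 by 1.23. The difference of Dnmt1 was thus smaller than that of the mitosis genes, and the ratio of Dnmt1 to Pcna, the replication clamp that it binds, was 0.591 ± 0.0276 in Mmrn1-high and 0.76 ± 0.0745 in Mmrn1-low cells (SD, n = 3 each, exact permutation p = 0.1, 0.16 adjusted over 8 ratios). The ratio of Uhrf1 to Pcna was 0.611 ± 0.0359 in Mmrn1-high and 0.631 ± 0.0545 in Mmrn1-low cells, with overlap (exact permutation p = 0.8). The part of proliferation in the levels of Dnmt1 was not tested.

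Markers of other marrow cells moved with the groups too. All 8 granulocyte progenitor markers were lower in Mmrn1-high cells, with the smallest p for Prtn3 (-2.67) and Mpo (-2.69). The 8 macrophage markers were all lower, with the smallest p for Vcam1 (-3.88) and C1qc (-3.59), at a summed 22.2 to 23.6 CPM in Mmrn1-high and 156 to 160 CPM in Mmrn1-low libraries. Of 8 erythroid markers, 2 were higher and 4 lower (Tfrc -1.14, Car1 -1.15), at 610 to 617 CPM in Mmrn1-high and 836 to 864 CPM in Mmrn1-low libraries. Of 8 plasma cell markers, 7 were tested, 1 was higher (Sdc1) and 3 were lower (Derl3 -1.39), or 3 and 3 with library size alone and 1 and 2 without the deepest libraries, at 109 to 151 CPM in Mmrn1-high and 291 to 418 CPM in Mmrn1-low libraries. Of 8 B lineage markers, 7 were tested and 6 were higher (Ebf1 1.52), at 46.2 to 47 CPM in Mmrn1-high and 33.6 to 34.8 CPM in Mmrn1-low libraries. Of 8 T and NK cell markers, 4 were tested and 4 were higher (Lck 1.88, Gzmb 1.75). Under the filter were Cd3d, Cd3e, Cd3g and Ncr1. Their means in Mmrn1-high and Mmrn1-low libraries were 0.433 and 0.259 CPM for Cd3d and 0.516 and 0.561 CPM for Cd3e. For Cd3g they were 0.454 and 0.424 CPM, and for Ncr1 0.504 and 0.0465 CPM. The 8 summed to 47.1 to 50.6 CPM in Mmrn1-high and 13.9 to 15.4 CPM in Mmrn1-low libraries. Most of this sum was Lck alone, which averaged 37.5 CPM in Mmrn1-high and 10.2 CPM in Mmrn1-low libraries. No marker of these lists was at 0 in all libraries of a group. The stem cell marker Mecom was higher by 1.51 and Mllt3 by 0.81. The part of these cells in the levels of the DNA methylation genes was not tested.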

How the data were processed

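RNA-seq of 6 libraries, 3 per group, was analysed from a table of the whole series. Stranded paired-end libraries were made from poly-A RNA, per the labels' protocols. Per the file headers, the authors deposited raw counts and FPKM per Ensembl gene. GRCm38, HISAT2, StringTie, edgeR and CASAVA 1.8 are named, with no role or order, in the submitters' processing notes, which give no strand setting.

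The test on counts was that of edgeR 4.0.16 under R 4.3.3 (quasi-likelihood F test, robust fit, TMM factors, filterByExpr, group as the only term), adjusted by Benjamini-Hochberg over 15419 genes and called at 0.05, with log2 fold changes as Mmrn1-high minus Mmrn1-low. The SE is the fold change over the square root of F. Ratios between genes are of counts per kilobase of the exon union in GENCODE M21, with exact permutation tests adjusted over 8 ratios. For the ratios alone, adding 0.5 to the counts and leaving out the length scaling were further alternatives. Alternatives were other scalings and filters, DESeq2 1.42.0, limma 3.58.1 voom, a replicate block, limma on the authors' FPKM as log2(FPKM + 1) or + 0.1, an adjusted p under 0.01 and each library left out; leaving out both deepest libraries and dividing the FPKM by the TMM factors were added after the data were seen. The 9 genes and all lists were chosen with earlier results of these data known. Named are the 9 genes, per pathway list up to 4 genes with the smallest p and the members of a count of at most 5, 2 genes per cell type list, and the 3 genes nearest to Tet1 and to Dnmt1. Mmrn1, Chd4, Tdg, Cd3d, Cd3e, Cd3g and Ncr1 fall outside that rule and were chosen after their values were seen. Some genes that the rule takes are not reported here. Promoters are RefSeq windows of GRCm38.p6, and figures used Python 3.11.15 and matplotlib 3.10.9.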

Additional observations from a re-analysis of the deposited data

How the results depend on the processing

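Dnmt1, Dnmt3a, Dnmt3b and Tet1 kept their direction and their call in all 19 alternatives. Scaling by library size alone gave 5 genes higher and 1 lower, with Tet3 at -0.07 and Mbd2 at -0.03 no longer called and Uhrf1 at 0.16 and Uhrf2 at 0.56 called. The authors' FPKM with a pseudocount of 1, which carry no composition correction, also gave 5 higher and 1 lower, with Tet3 at -0.07, Uhrf1 at 0.16, Uhrf2 at 0.49 and Mbd2 at -0.03, and 3019 genes lower in all. A pseudocount of 0.1 gave 5 and 1, with -0.07 for Tet3, 0.16 for Uhrf1, 0.55 for Uhrf2, -0.03 for Mbd2 and 3011 genes lower, and no FPKM filter gave 5 and 1, with -0.07, 0.16, 0.49 and -0.03 in the same order and 3020 genes lower. FPKM divided by the TMM factors gave 3 higher and 3 lower. DESeq2 called Tet2 at -0.45 and Uhrf2 at 0.41, the filter of 5 CPM called Uhrf2 at 0.46, and the fit without both deepest libraries called Tet2 at -0.46 and Uhrf2 at 0.45 and lost Mbd2 at -0.14. The cause of these changes was not tested. Leaving out each library in turn gave -0.57 to -0.33 for Tet2, called without Mmrn1-high replicate 1 or Mmrn1-low replicate 3, 0.32 to 0.56 for Uhrf2, called without Mmrn1-high replicate 2, -0.0014 to 0.04 for Uhrf1, and -0.11 to 0.01 for the log2 ratio of Uhrf1 to Pcna. Same-numbered libraries did not deviate together (correlations of 0.04257, -0.0785 and 0.02856). This cannot show whether the numbers pair the samples, which the sources used here do not say. The replicate block gave 3 of the 9 genes higher and 3 lower and moved no call among them. Over all genes it gave 4476 higher and 4447 lower, against 4737 and 4701 without it. With 3 libraries a group, the ratios cannot reach an exact p under 0.1, or under 0.25 with the replicate block.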
